A study of Mus musculus with 7 samples.

Results

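Naive double negative T (DNT) cells that carried Tnfrsf9 RNA together with RNA of Crtam, Ccl4, Hes1 or Irf8 were described here. A cell barcode of a naive DNT library was a member if it held at least 1 unique molecular identifier (UMI, 1 counted RNA molecule) of Tnfrsf9 and at least 1 UMI of any of the other 4 genes, called partners below. The rule found 306 members among 10497 kept naive DNT barcodes, 89 of 3972 in replicate 1 and 217 of 6525 in replicate 2, and 27733 barcodes were kept in the whole series. The members were chosen by measured values of these 5 genes, so the levels of those genes are given as a description, with no test. All other naive DNT barcodes of the same library, 3883 and 6308, served as the comparison.

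The series holds 7 libraries of sorted spleen T cells from male C57BL/6 mice aged 8 weeks, in 5 groups: naive DNT (2 libraries), activated DNT (2), and CD4, CD8 and TCRab T cells (1 each). All were sorted as CD3+, NK1.1-, positive for the alpha-beta and negative for the gamma-delta T cell receptor. DNT cells were in addition negative for CD4, CD8 and binding of CD1d loaded with αGal or LPC. The activated DNT cells are naive DNT cells cultured for 3 days under anti-CD3 and anti-CD28 antibody with IL-2 at 20 ng/ml, so culture and stimulation cannot be told apart in that group. The series' design text calls the replicates of naive and of activated DNT biological; replicate 1 of each used a v2 kit and replicate 2 a v3 kit, and the labels do not say how many animals gave a library.

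As background, a T cell whose receptor is engaged switches on early transcription factors of the EGR and NR4A families within hours, then surface receptors such as CD137, which Tnfrsf9 encodes, and later cytokines and the genes of cell growth. CD137 is a co-stimulatory receptor of the tumour necrosis factor receptor family and is used as a mark of recent antigen contact. Crtam is an adhesion receptor of activated cytotoxic cells, Ccl4 a chemokine, Hes1 a repressor driven by Notch, and Irf8 a transcription factor of the interferon regulatory family. DNT cells are a small alpha-beta T cell population that lacks both co-receptors.

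The members were deeper than the barcodes around them. The median was 4968 UMIs in members against 4105 in the others of replicate 1, and 8989 against 7529 in replicate 2. A barcode with more UMIs has more chances to meet a rule of presence, so depth is part of how members were found. Among members, 23.6% and 17.5% lay above the 95th percentile of UMIs of their library, against 4.58% of the others in both libraries. No doublet caller was used. Naive and activated replicate 2, made with the same kit, shared 3 barcode sequences, of which 0 were members. Markers of B, myeloid, plasma and red cells are given below with the results. Both arms carried T cell genes at like levels: the 10 pan-T genes summed to 4510 and 4046 CPM (UMIs per 1000000 UMIs of a sum) in members and to 4580 and 4142 in the others, replicates 1 and 2. Cd4 had 0 UMIs in the members of both libraries.

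Most members met the rule narrowly. In replicate 1, 69 of 89 members held 1 Tnfrsf9 UMI, 13 held 2 and 7 held 3 or more, with a highest value of 5. In replicate 2, 141 of 217 held 1, 36 held 2 and 40 held 3 or more, with a highest value of 14. Members with exactly 1 Tnfrsf9 UMI and 1 partner UMI, just inside the rule, numbered 46 and 68. Crtam was the most frequent partner, in 62 and 157 members. Irf8 was found in 21 and 69 members, Ccl4 in 18 and 42, and Hes1 in 5 and 25. A single partner gene was present in 75 and 144 members. Of all barcodes with Tnfrsf9, 38.9% in replicate 1 and 51.2% in replicate 2 held a partner, against 23.3% and 33.9% of barcodes without Tnfrsf9. With every barcode thinned to 2000 UMIs these shares were 22.1% and 25.2% against 13.7% and 12.6%.

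The share of kept barcodes that met the rule was 2.24% in naive replicate 1 (95% exact Clopper-Pearson interval 1.80% to 2.75%) and 3.33% in replicate 2 (2.90% to 3.79%). It was 0.774% in TCRab (0.533% to 1.08%), 0.339% in CD4 (0.198% to 0.543%) and 0.991% in CD8 cells (0.726% to 1.32%). In activated DNT cells it was 89.7% and 57.2%. After thinning to 2000 UMIs the order of the DNT groups stayed, with 0.652% and 0.544% in naive DNT and 44.0% and 32.0% in activated DNT. TCRab, CD4 and CD8 then stood at 0.242%, 0.123% and 0.109%. Intervals cover counting error only, and CD4, CD8 and TCRab had 1 library each, so these shares were not tested against each other.

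**Figure D1:**
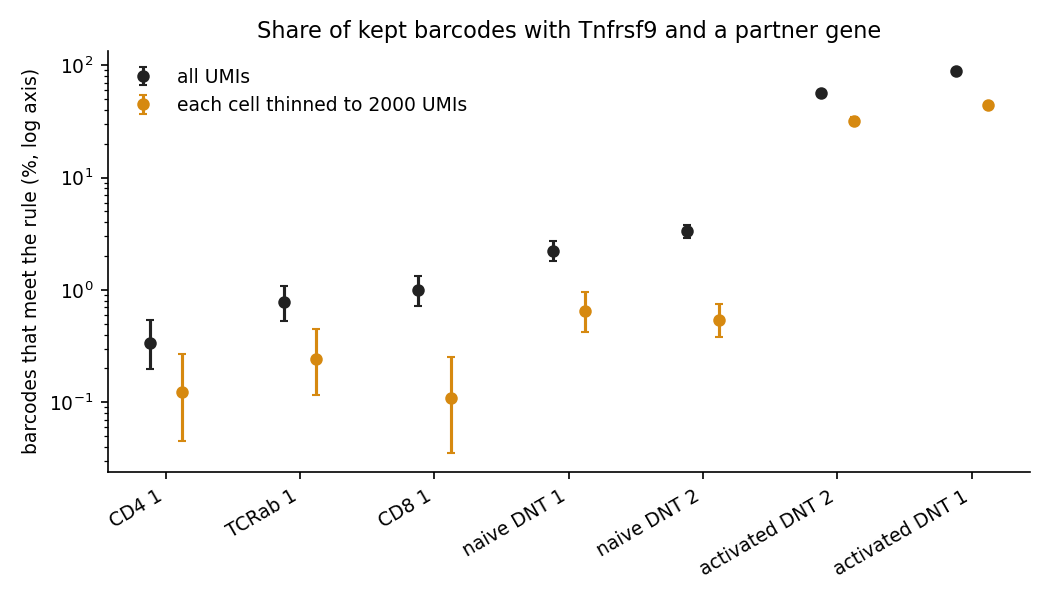
Percent of kept barcodes in each library with at least 1 UMI of Tnfrsf9 and of a partner gene, on a log axis, from all UMIs (black) and with each cell thinned to 2000 UMIs (orange). Bars are 95% exact binomial intervals; both naive DNT libraries lie above CD4, CD8 and TCRab and far below both activated DNT libraries.

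Tnfrsf9 (ENSMUSG00000028965, chr4:150914562-150946102, plus strand, GRCm38) summed to 245 and 194 CPM over the members of replicates 1 and 2. It stood at 12.3 and 6.14 CPM in the others and at 431 and 1020 CPM in activated DNT cells. Summed member levels therefore stayed below those of activated cells in both replicates, although every member holds the gene by rule. Crtam (chr9:40969691-41004628) was at 199 and 154 CPM in members, 27.6 and 33.7 in the others and 213 and 371 in activated cells. Irf8 (chr8:120736358-120756694) was at 57.6 and 52.7 CPM in members, 10.9 and 11.0 in the others and 235 and 159 in activated cells. Ccl4 (chr11:83662584-83664683) differed most between the libraries, with 296 and 83.1 CPM in members, 38.1 and 31.2 in the others and 4918 and 4062 in activated cells. One barcode of replicate 1 held 104 of the 144 Ccl4 UMIs of that library's members. Hes1 (chr16:30064384-30067796) went the other way between members and culture, at 26.7 and 38.6 CPM in members, 6.29 and 8.84 in the others and 1.84 and 0.524 in activated cells.

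Regulatory sequences of a pair of genes are shown because they precede starts of genes the results turn on, and each holds a motif of a factor family that follows receptor signals. RefSeq promoter windows on GRCm38.p6 were matched for 2 of the 5 rule genes and 12 of the 15 largest rises described below. Of the 4 windows of the rule genes Tnfrsf9 and Irf8, the 1 printed here held a searched motif. The 250 bases before each annotated start were searched on both strands for the EGR letters GCGTGGGCG and GCGGGGGCG, the AP-1 letters TGACTCA, the CRE letters TGACGTCA, the NR4A letters AAAGGTCA and the T-box letters AGGTGTGA. Of 32851 windows of this length, 4.46% held the AP-1 letters, 3.06% the EGR letters, 1.55% the CRE letters, 1.34% the NR4A letters and 1.12% the T-box letters, and no searched motif contains another. Before the second of the annotated Tnfrsf9 starts, chr4:150927749-150927998 on the plus strand holds the AP-1 letters, read on the opposite strand as TGAGTCA, beginning 15 bases before the start. Before the start of Cd200, chr16:45409054-45409303 on the minus strand holds the EGR letters beginning 38 bases before the start. Both are printed 5′ to 3′ along the gene with the motif in capitals.
Tnfrsf9: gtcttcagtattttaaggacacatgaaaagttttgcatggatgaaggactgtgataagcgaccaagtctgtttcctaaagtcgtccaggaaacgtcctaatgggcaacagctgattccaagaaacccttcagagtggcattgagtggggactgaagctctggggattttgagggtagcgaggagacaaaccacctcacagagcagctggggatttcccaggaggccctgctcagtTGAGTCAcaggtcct
Cd200: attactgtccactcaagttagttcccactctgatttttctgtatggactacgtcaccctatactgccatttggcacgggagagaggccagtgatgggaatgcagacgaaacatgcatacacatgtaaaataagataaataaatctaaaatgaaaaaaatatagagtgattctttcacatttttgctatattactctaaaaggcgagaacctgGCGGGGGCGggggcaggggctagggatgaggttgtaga
Among the 14 windows of the 15 largest rises, the EGR, CRE and NR4A letters each occurred in 1 and the AP-1 and T-box letters in 0. A match is a description of these letters and not a bound site.

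Members were then compared with all other barcodes of the same library over 10627 genes, with the 5 rule genes left out. UMIs were summed over members and over the others of each library and tested with edgeR's quasi-likelihood test, with the library as a block and Benjamini-Hochberg adjustment. At an adjusted p of 0.05, 526 genes rose (4.95% of those tested) and 464 fell (4.37%), 990 in all (9.32%). Of the 990, 930 had the same direction in both libraries. DESeq2 on the same sums called 172 genes (1.62%, of which 96 rose, 0.903%, and 76 fell, 0.715%), and 171 of them were called by edgeR with the same direction. Both arms come from the same 2 libraries, and the fit has 1 residual degree of freedom. Its median prior degrees of freedom were infinite. The p-values and standard errors (SE) therefore rest on a spread pooled over genes, not on each gene's own. Without the block for library edgeR called 0 genes (273 at an unadjusted p under 0.05). With library totals in place of TMM scaling the split was 763 higher and 302 lower. In summed UMIs, more cells of a type and more RNA per cell cannot be told apart, here or below.

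Rgs16, a regulator of G protein signalling, rose most. It was at 132 and 276 CPM in members of replicates 1 and 2, at 16.1 and 23.7 in the others, and at 200 and 411 in activated DNT cells (log2 difference members minus others 3.30 ± 0.12 SE, edgeR adjusted p = 1.18e-151). The largest rises were chosen for the same direction in both libraries, so that direction is no added result. Both member values lay below the activated value of the same replicate. With each barcode thinned to 2000 UMIs, 13.6% and 15.7% of members held Rgs16 against 2.16% and 2.62% of the others, and 0 of 107 barcodes of replicate 2 with 2 or more Cd79a UMIs, a B cell gene, which allows a share of up to 2.80%. Without thinning the shares were 25.8% and 32.3% against 3.53% and 6.20%, and 0.917% of 109 Cd79a barcodes. Counted over the genes shared by both references, median depths in replicate 2 were 8948 UMIs in members, 7489 in the others and 5300 in the Cd79a barcodes.

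Pdcd1 and Lag3, receptors that restrain T cells, were among the largest rises, as was Cd200, which is counted here with the co-stimulatory genes. Pdcd1, which encodes PD-1, was at 28.8 and 37.7 CPM in members and 5.80 and 5.48 in the others (log2 difference 2.55 ± 0.26 SE). Lag3, a co-inhibitory receptor that binds MHC class II, was at 69.9 and 46.3 CPM against 13.7 and 7.43 (2.43 ± 0.19). Cd200, a membrane protein that engages an inhibitory receptor on myeloid cells, was at 51.4 and 31.3 CPM against 7.69 and 4.09 (2.74 ± 0.26). For all 3 genes the members' values lay above those of the others in both libraries. In the list of co-inhibitory receptors, 4 of 13 tested genes rose and 1, Vsir (log2 difference −0.70), fell. The median of that list was 0.33, against −0.02 over all genes tested. Ctla4 also rose, from 10.7 and 21.05 CPM in the others to 22.6 and 70.4 in members.

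A further 5 of the 15 largest rises encode surface or cytoskeletal proteins. Alcam, the ligand of CD6, was at 37.0 and 33.6 CPM in members against 4.70 and 3.605 in the others (log2 difference 3.03 ± 0.29 SE). Itgad, an integrin alpha chain, was at 24.7 and 25.4 CPM against 4.82 and 2.96. Ptprk, a receptor tyrosine phosphatase, was at 94.6 and 94.4 CPM against 13.4 and 9.20 (3.06 ± 0.17). Krt18, a keratin, was at 169 and 63.1 CPM against 28.2 and 9.71, and Tubb2b, a beta tubulin, at 105 and 64.9 against 21.5 and 8.48. The shared direction of these 5 genes in both libraries was likewise set by the choice. The fitted difference of Krt18 changed sign, to −0.01, when members were chosen after thinning to 2000 UMIs.

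The other rises named by size have diverse roles. Pou2af1, a transcriptional coactivator best known from B cells, was at 121 and 68.5 CPM in members against 26.6 and 8.36 in the others. Summed B cell markers were not higher beside it, at 53.4 and 38.6 CPM in members against 90.7 and 65.2 in the others, and Ms4a1, Ebf1 and Bank1 were at 0 UMIs in members. Oxsr1, a kinase of ion transport and cell volume, was at 179 and 73.1 CPM against 21.8 and 20.0. Ddc, an aromatic amino acid decarboxylase, was at 84.3 and 62.2 CPM against 20.8 and 10.8. Nrgn, a calmodulin-binding protein, was at 47.3 and 75.8 CPM against 8.79 and 14.9. Hivep3, a zinc finger transcription factor, and Trpm1, a cation channel, completed the 15, with log2 differences of 2.24 and 2.19. DESeq2 called all 15 rises.

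**Figure D2:**
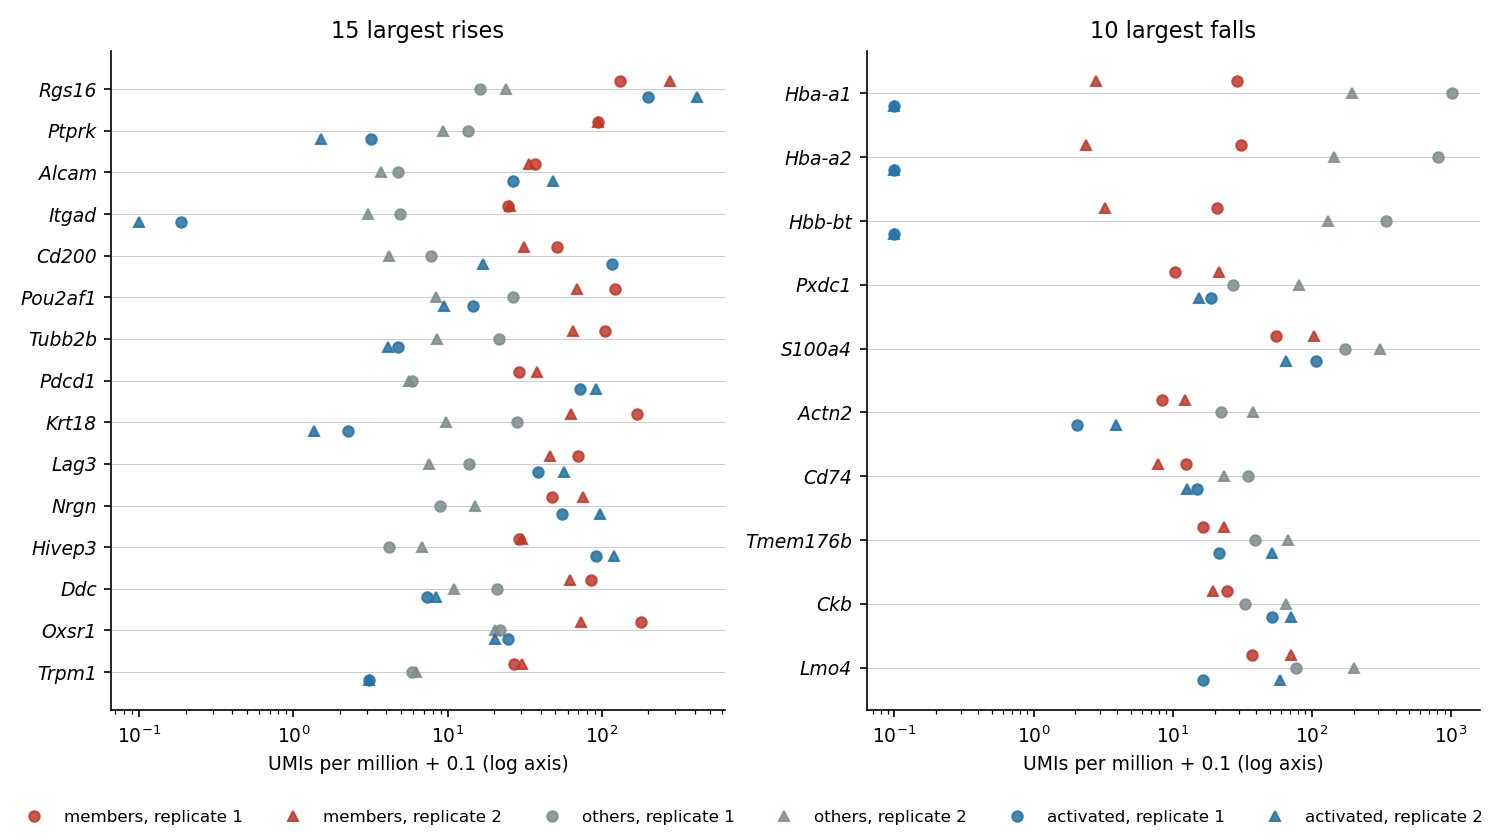
CPM plus 0.1, on a log axis, of the 15 genes with the largest rise and the 10 with the largest fall in members (red), others (grey) and activated DNT cells (blue), circles for replicate 1 and triangles for replicate 2. Members lie to the right of the others for each of the 15 rises, as the choice of these genes required. Activated cells lie near the members for Rgs16, Alcam, Lag3 and Nrgn and near or below the others for Ptprk, Itgad, Krt18 and Trpm1.

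In the list of genes that follow T cell receptor signals, 11 of 22 tested rose and 0 fell by edgeR (1 lower at an unadjusted p under 0.05), with a median log2 difference of 0.48. DESeq2 called 4 higher and 0 lower. Besides Rgs16, Egr2, a zinc finger factor induced through calcium signalling, was at 22.6 and 15.4 CPM in members against 5.004 and 2.88 in the others (log2 difference 2.22 ± 0.37 SE). Nr4a2, an orphan nuclear receptor, was at 132 and 216 CPM against 47.9 and 64.1 (1.56 ± 0.11). Egr3 rose by the test at 1.80, but it had 0 UMIs in the members of replicate 1, and it lost its call with barcodes of other-cell markers left out (adjusted p = 0.297). Other widely used early marks did not pass. Nr4a1 was at 51.4 and 158 CPM in members against 28.0 and 135 in the others (adjusted p = 0.288), and Cd69 at 275 and 542 against 309 and 560 (adjusted p = 0.232). Per barcode, thinned to 2000 UMIs, members held a mean of 2.34 and 3.41 genes of this list, the others 1.51 and 2.57, and activated DNT cells 2.27 and 2.74.

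The name of recent stimulation was thus borne out only in part by genes outside the rule. Immediate early and stress genes showed 2 rises and 3 falls among 20, with a median of −0.07; Zfp36, an RNA-binding repressor, fell by 0.51 on the log2 scale and Hsp90aa1, a chaperone, rose by 0.45. Fos was at 849 and 648 CPM in members and 643 and 516 in the others (adjusted p = 0.126). The NF-kB list had 3 rises and 3 falls among 20 with a median of −0.00. By library its median was 0.53 in replicate 1 and 0.01 in replicate 2. Thinned to 2000 UMIs, members held a mean of 2.74 and 3.99 of its genes and the others 1.99 and 3.84. Nfkb1 rose by 0.56, as did Bcl2a1b, a survival gene with near-identical copies whose reads may be split; with depth-matched others Bcl2a1b lost its call (adjusted p = 0.126). Il2ra, the high-affinity IL-2 receptor chain that rises with activation, was at 6.17 and 8.17 CPM in members and 2.62 and 15.1 in the others (adjusted p = 0.183). Gzmb, a granzyme, was at 8.22 and 31.8 CPM against 10.9 and 21.2 (adjusted p = 0.335).

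Cytokine and chemokine genes split, with 5 rises and 4 falls among 18 tested. Xcl1, a chemokine that attracts cross-presenting dendritic cells, was at 602 and 406 CPM in members against 190 and 179 in the others (log2 difference 1.27 ± 0.10 SE). Fasl, the death ligand, rose by 1.20, and Tnfsf9, the ligand of CD137, by 1.47 from low levels of 3.23 and 2.17 CPM in the others (adjusted p = 0.0487). Cd40lg, the helper ligand, fell by 1.31 and had 0 UMIs in members of replicate 1. Co-stimulatory genes had 3 rises and 3 falls among 18; after Cd200 the next largest was Slc7a5, an amino acid transporter of growing cells, at 18.5 and 24.96 CPM against 6.10 and 11.0. Genes of strong selecting signals had 3 rises and 0 falls among 10 (1 lower at an unadjusted p under 0.05 and 0 by DESeq2), namely Pdcd1, Egr2 and Cd24a, a surface glycoprotein of immature T cells (1.996).

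Among lineage transcription factors Eomes had the largest rise and Zbtb16 the largest fall. Eomes, a T-box factor of memory CD8 and NK cells, was at 199 and 274 CPM in members and at 57.6 and 47.4 in the others (log2 difference 2.16 ± 0.11 SE, adjusted p = 3.66e-69). It was at 35.3 and 52.3 CPM in activated DNT cells, so the members lay above both other sets of cells. After thinning, 31.8% and 25.8% of members held Eomes against 9.26% and 6.54% of the others and 1.87% of the 107 Cd79a barcodes of replicate 2; without thinning these were 47.2% and 46.5% against 16.02% and 17.2%, and 5.50%. In the list, 4 of 21 tested factors rose and 7 fell. Zbtb16, the factor of innate-like lymphocytes, was at 2.06 and 4.54 CPM in members against 3.91 and 25.3 in the others (−2.46). Rora was at 2.06 and 39.0 against 19.0 and 114 (−1.67).

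Markers of type 17 cells, which produce IL-17, were low in members. Of 9 tested, 7 fell and 0 rose by edgeR (0 higher at an unadjusted p under 0.05), with a median of −1.50, and DESeq2 called 2 lower and 0 higher. Their summed level was 53.4 and 118 CPM in members against 112 and 299 in the others. Il23r had 3 UMIs in all members against 400 in all others, a ratio of pooled CPM of 0.184. Its exact conditional 95% interval, 0.0378 to 0.542, covers counting error of the pooled UMIs and not variation between libraries. Ccr6, a chemokine receptor of these cells, was at 2.06 and 2.72 CPM in members against 4.82 and 15.3 in the others (−2.44). Tmem176b, an endomembrane protein and the one marker of this list among the 10 largest falls, was at 16.4 and 23.1 CPM against 38.7 and 67.5 (−1.59). Of 8 markers of natural killer T cells, 5 fell and 1 rose, with Zbtb16, Rora and Cd40lg the largest.

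**Figure D3:**
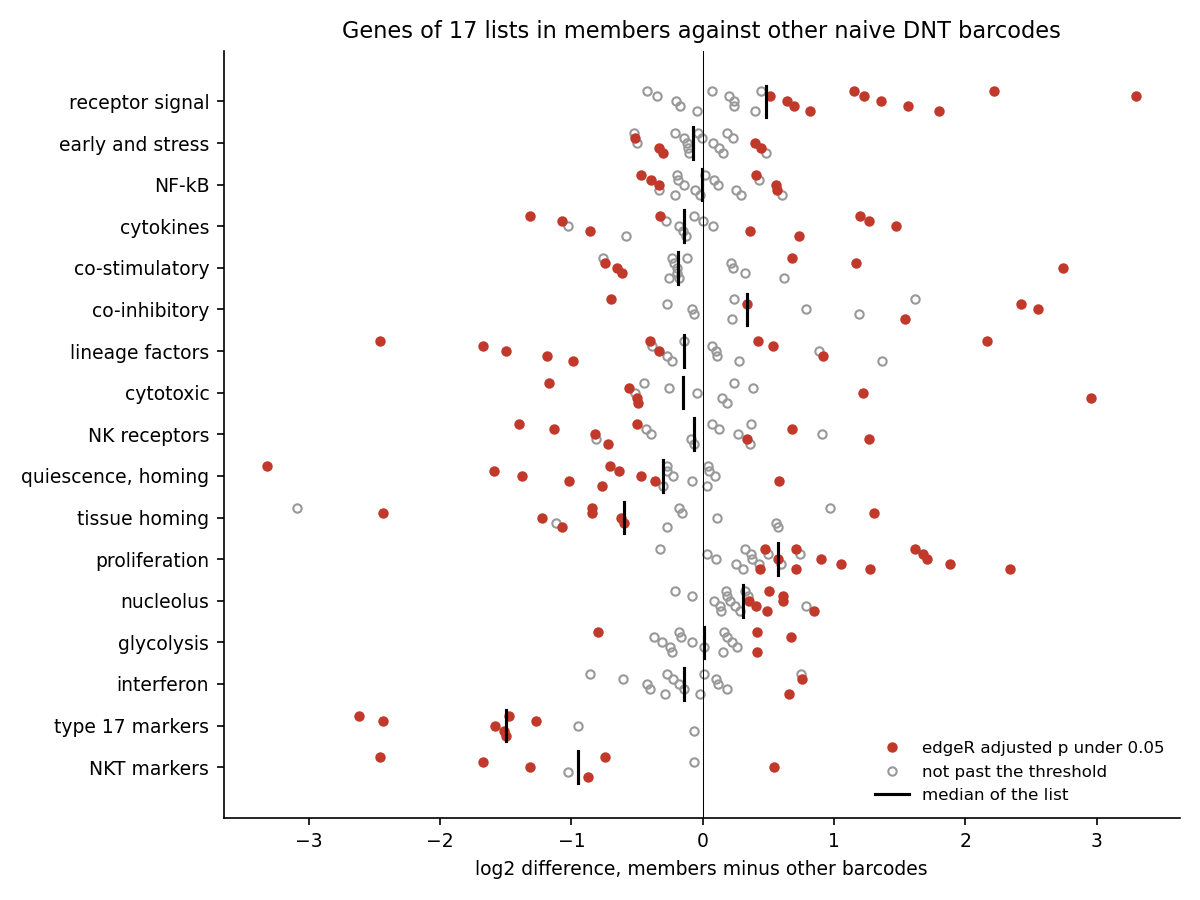
Log2 difference between members and other naive DNT barcodes for each tested gene of 17 lists, filled red where edgeR's adjusted p was under 0.05 and open grey otherwise, with the list's median as a black bar. Receptor signal, proliferation and nucleolar genes lie mostly to the right of 0, and type 17 and natural killer T cell markers mostly to the left.

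Among genes of resting and recirculating T cells more fell than rose in members. Of 19 tested, 9 fell and 1 rose, with a median of −0.30, and DESeq2 called 4 lower and 0 higher. The list summed to 4490 and 4966 CPM in members just inside the rule and to 5607 and 4535 in those with more UMIs of the rule genes. It was at 5007 and 4481 CPM with Tnfrsf9 only, 5717 and 5689 with a partner only, and 5641 and 5323 with neither. The lower sum was thus not seen in every member class, nor in members alone. Il7r, the receptor for the survival cytokine IL-7, was at 78.1 and 155 CPM in members against 136 and 411 in the others (log2 difference −1.37 ± 0.12 SE), and 75.8 or lower in activated cells. S1pr1, which lets T cells leave lymphoid organs, was at 41.1 and 92.6 CPM against 70.1 and 180 (−1.02). Igfbp4 had 3 UMIs in all members against 692 in the others, a ratio of pooled CPM of 0.106. Its interval of 0.0219 to 0.312 likewise covers counting error only. Il6ra, a cytokine receptor chain, fell by 1.59 from levels of 6.04 and 11.5 CPM in the others.

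Of 17 tested tissue homing receptors 7 fell and 1 rose, with a median of −0.60, and DESeq2 called 2 lower and 0 higher. The list's median was −0.14 in replicate 1 and −0.57 in replicate 2. Cxcr6, a receptor of tissue-resident and innate-like cells, was at 24.7 and 62.2 CPM in members against 66.6 and 131 in the others. Among NK receptors 3 rose and 5 fell of 19. Il18r1 was at 20.6 and 65.4 CPM in members against 60.9 and 158 in the others (−1.40), and Klra1, a Ly49 receptor whose close paralogs can share reads, at 24.7 and 35.9 against 81.3 and 64.4. Depth-matched others gave 6 rises and 6 falls in that list.

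Cytotoxic genes gave 2 rises and 4 falls among 14. Gzmc, a granzyme of strongly activated cells, rose by 2.96 through replicate 2 alone, where members had 22.2 CPM against 2.30, while members of replicate 1 had 0 UMIs. Gzmk, a granzyme of memory-like cells, rose from 12.3 and 3.69 CPM in the others to 16.4 and 13.2 in members. Gzma fell by 1.17, from 63.1 and 29.9 CPM to 6.17 and 20.4, and lost its call with the barcodes above the 95th percentile of UMIs left out (adjusted p = 0.463). DESeq2 called none of these 3.

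Proliferation genes were higher in members as a whole, by a count that moved with how depth was treated. Their list summed to 1194 and 893 CPM in members just inside the rule, replicates 1 and 2. It was at 1131 and 1411 in members with more UMIs of the rule genes. With Tnfrsf9 only it was at 1030 and 1102 CPM, with a partner only 872 and 966, and with neither 783 and 932. The higher sum was thus not seen just inside the rule in replicate 2, nor in members alone. By edgeR 13 of 25 rose and 0 fell (1 lower at an unadjusted p under 0.05 and 0 by DESeq2), with a median of 0.57. Against others matched on total UMIs 5 rose and 1 fell, after thinning 1 rose, with barcodes of other-cell markers left out 5 rose, and DESeq2 called 1. Stmn1, a microtubule regulator of dividing cells, was at 103 and 134 CPM in members against 39.5 and 34.6 in the others and 330 and 436 in activated cells (1.68 ± 0.13). Aurkb, Ccna2 and Tk1, which act in mitosis and DNA synthesis, had 19, 20 and 18 UMIs in all members, with differences of 2.34, 1.89 and 1.71. The difference of Ccna2 was −2.62 without replicate 2 and −8.09 with members chosen after thinning, and that of Tk1 was −0.18 without barcodes above the 95th percentile of UMIs. Nucleolar and growth genes had 7 rises and 0 falls among 20 by edgeR (0 lower at an unadjusted p under 0.05), with a median of 0.31, while DESeq2 called 0 of them. Srm, an enzyme of spermidine synthesis, was at 63.7 and 62.6 CPM against 32.8 and 32.4, and Nop58, of the small nucleolar RNA complex, at 78.1 and 148 against 38.8 and 95.7.

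The largest falls were haemoglobin genes. Hba-a1 was at 28.8 and 2.72 CPM in members against 1016 and 195 in the others (log2 difference −5.67 ± 0.19 SE), and Hba-a2 and Hbb-bt had differences of −5.29 and −4.85. These are red cell genes; of 7 tested markers of red cells 3 fell and 1 rose, and the 8 listed markers summed to 214 and 31.3 CPM in members and to 3890 and 889 in the others. With barcodes of 2 or more UMIs of other-cell markers left out, the 3 differences were −0.09, −0.95 and −0.41 and none passed (lowest adjusted p = 0.655). The haemoglobin genes are themselves among the markers of that setting. Cd74, the invariant chain of antigen-presenting cells, fell from 34.5 and 23.1 CPM to 12.3 and 7.72, and likewise lost its call (adjusted p = 0.878).

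The other 6 falls kept their calls in that setting, whose short marker list was chosen after seeing the data. With all listed other-cell markers used instead, which kept 12 and 28 members, 0 genes were called lower. S100a4, a calcium-binding protein of effector and memory T cells, was at 55.5 and 104 CPM in members against 172 and 311 in the others (−1.68 ± 0.13 SE). Lmo4, a LIM-only transcriptional cofactor, was at 37.0 and 71.3 CPM against 77.4 and 200 (−1.51 ± 0.14). Pxdc1 was at 10.3 and 21.3 against 27.0 and 80.3 CPM, Actn2, an actin crosslinker, at 8.22 and 12.3 against 22.0 and 37.5, and Ckb, brain-type creatine kinase, at 24.7 and 19.5 against 33.1 and 64.9.

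Myeloid and dendritic markers moved in both directions. Cd14, a receptor for bacterial lipopolysaccharide, was at 20.6 and 9.07 CPM in members against 2.38 and 1.39 in the others, and Cd68, a lysosomal protein, at 34.9 and 9.99 against 5.74 and 4.35. Itgax, which encodes CD11c, was at 14.4 and 9.99 CPM against 2.44 and 1.41. S100a8, a neutrophil gene, fell, and lost its call against depth-matched others (adjusted p = 0.562). Of 15 myeloid markers 2 rose and 2 fell among 7 tested, their sum was 378 and 172 CPM in members against 365 and 203 in the others, and Lyz1, Adgre1, C1qa and Vcan were at 0 UMIs in the members of both libraries. Of 11 dendritic markers, 1 rose and 1 (Ccr9) fell among 4 tested, the sum was 101 and 130 CPM against 96.9 and 133, and Xcr1, Clec9a, Flt3 and Siglech were at 0. Their part in the results above was not tested further.

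Barcodes just outside the rule gave intermediate levels of Rgs16 and Eomes. With a partner and no Tnfrsf9, Rgs16 was at 23.4 and 38.6 CPM in replicates 1 and 2. Rgs16 was at 145 and 94.0 CPM in members just inside it, at 117 and 343 in members with more UMIs of the rule genes, at 50.9 and 25.4 in the 140 and 207 barcodes with Tnfrsf9 and no partner, and at 11.8 and 14.6 in those with neither. Eomes followed the same order of inside and outside, with 182 and 143 CPM just inside, 111 and 58.3 with Tnfrsf9 only, 71.8 and 73.2 with a partner only, and 50.2 and 31.3 with neither. Il7r ran the opposite way in replicate 2, from 134 and 211 CPM inside to 357, 321 and 468 outside, and in replicate 1 it was 75.4 to 82.8 in every barcode class with Tnfrsf9 and 149 with neither. The receptor signal list was intermediate in replicate 1, at 1226 and 1546 CPM inside, 1066 and 994 just outside and 900 with neither. In replicate 2 it was not, at 1865 CPM with a partner only and 1900 with neither. With Tnfrsf9 only it was at 2237 there, against 2272 and 2736 inside. The barcodes outside are part of the comparison arm above.

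**Figure D4:**
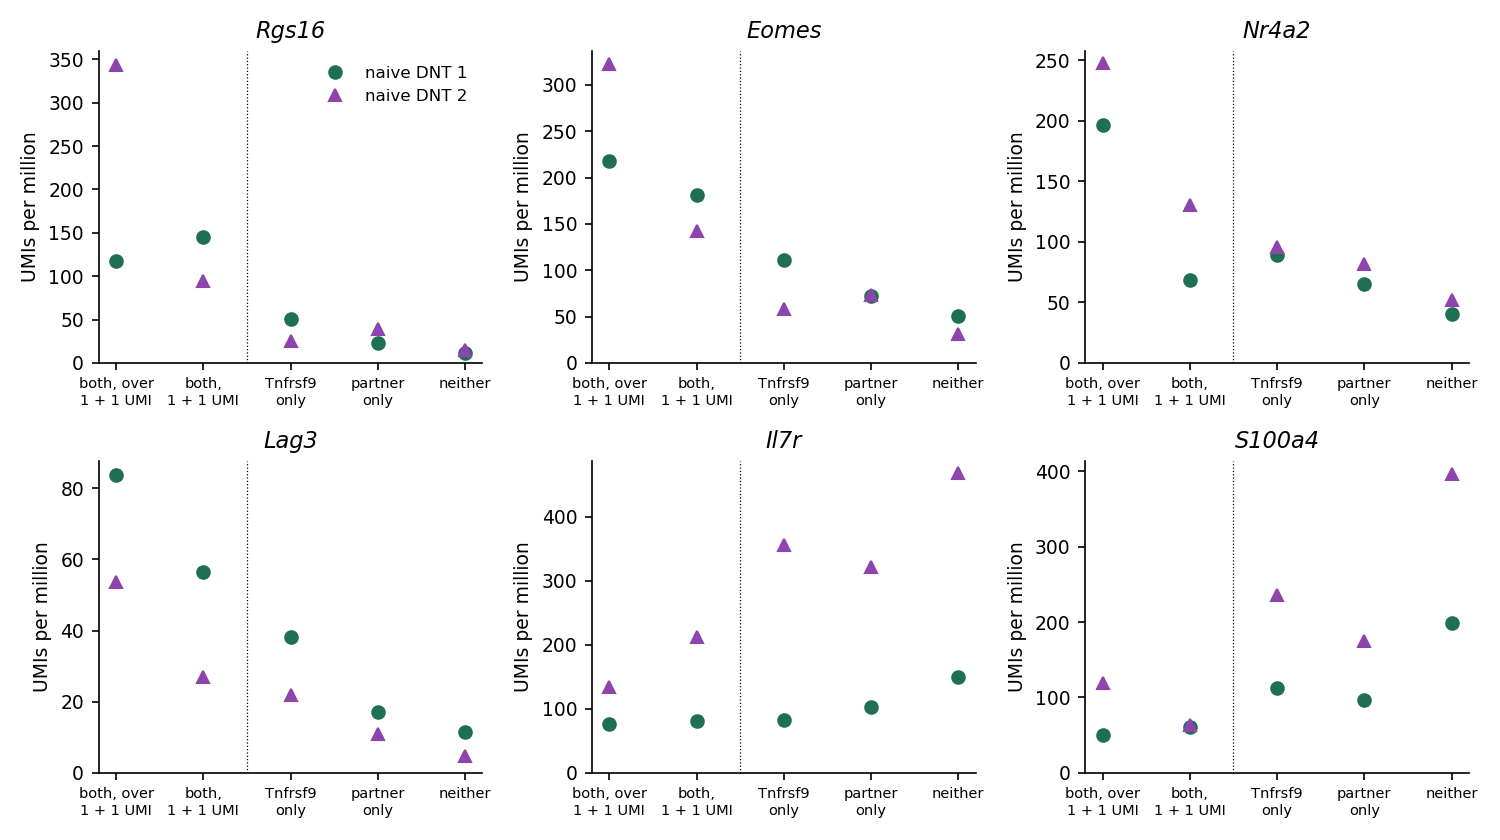
CPM of 6 genes in naive DNT barcodes split by the rule, circles for replicate 1 and triangles for replicate 2, with members to the left of the dotted line. Rgs16, Eomes and Lag3 were higher in both member classes than in every class outside of the same replicate, and Il7r and S100a4 were highest in barcodes with neither Tnfrsf9 nor a partner.

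Members also differed by partner gene. Classes overlap, since a member can hold several partners, and no test was made between them. Members with Crtam had Eomes at 239 and 326 CPM and those with Irf8 at 167 and 313, while those with Ccl4 had 96.4 and 98.1. Rgs16 was at 108 and 337 CPM in members with Crtam, 175 and 246 in those with Irf8 and 96.4 and 69.4 in those with Ccl4. Ccl5, a chemokine of memory and effector cells that fell in members as a whole (log2 difference −0.86), was at 13788 and 9746 CPM in members with Ccl4 against 4046 and 4589 in those with Crtam. Members with Hes1 had the highest Nr4a2, 327 and 322 CPM, from 5 and 25 barcodes.

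The last comparison asked how near the members stood to DNT cells activated in culture. The same member sums enter both comparisons. Over 11145 genes, 247 were higher in members (2.22%) and 234 lower (2.1%), 481 in all (4.32%, edgeR, 2 against 2 sums, no block). Of the 15 largest rises, Rgs16, Alcam, Lag3 and Nrgn had levels in activated cells of 200 and 411, 26.3 and 48.2, 38.6 and 56.4, and 54.8 and 96.9 CPM, within or near the range of the members. Ptprk, Krt18 and Itgad did not follow. Ptprk was at 3.06 and 1.41 CPM and Krt18 at 2.16 and 1.25 in activated cells (log2 difference members minus activated 5.27 ± 0.63 and 6.04 ± 0.80 SE), and Itgad had 0.0875 and 0 CPM.

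Of the 5 largest differences above activated cells, Fosb, Fos and Dusp1 are early response genes that the other naive DNT cells also carry. The rest were Krt18 and Ptprk, given above, which the other naive DNT cells held at lower levels than members. Fosb was at 183 and 493 CPM in members, 141 and 413 in the others and 1.25 and 1.13 in activated cells (log2 difference members minus activated 7.997 ± 0.67 SE). Fos and Dusp1, a phosphatase that ends MAP kinase signals, were higher in members by 6.46 and 6.11. Of the early and stress list, 8 of 20 genes were higher in members than in activated cells and 1 was lower.

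The 5 largest differences below activated cells were Ccl1, Ccl20, Il13, Batf3 and Cdkn1a. Ccl1 and Ccl20, both chemokines, Il13, a cytokine, and Batf3, a transcription factor, had 0 UMIs in the members of both libraries. In activated cells Ccl1 was at 1636 and 563 CPM, Ccl20 at 327 and 166, Il13 at 102 and 50.5 and Batf3 at 58.2 and 50.1, replicates 1 and 2. Against the limit of 3 UMIs over both member sums, 1.12 CPM, Ccl1 was at least 505-fold lower than in activated replicate 2, which had the lower level, and at least 1467-fold lower than in replicate 1. Against replicate 2 Ccl20 was at least 148-fold, Il13 at least 45.3-fold and Batf3 at least 44.96-fold lower. Cdkn1a, a cell cycle inhibitor, was at 2.06 and 4.08 CPM in members and 479 and 381 in activated cells (−7.13 ± 0.71 SE). Gzmb, at 2111 and 3287 CPM in activated cells, was lower in members (log2 difference −7.06), as was Il2ra (−4.90), at 198 and 211 CPM in activated cells. In the cytokine list 15 of 26 tested genes were lower in members and 1 was higher. In the cytotoxic list 2 of 14 were lower and 1 was higher, with a median log2 difference of 0.14. Over all genes, leaving out naive replicate 1 left 7 called and leaving out naive replicate 2 left 24, against 426 without activated replicate 1 and 894 without activated replicate 2.

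Genes that separate activated from naive cells in one replicate pair were read in the members of the other, so that no library set both sides. The 257 genes at least 4-fold higher in activated replicate 2 had a median log2 ratio of members to others of 0.37 in naive replicate 1, and 62.6% lay above 0. The 311 genes from replicate 1 had a median of 0.42 in naive replicate 2, with 74.9% above 0. Genes lower in activated cells had medians of −0.36 (163 genes) and −0.27 (196 genes). Over all genes at 20 CPM or more the medians were 0.11 and 0.07. Members thus stood on the activated side of the others in both libraries by a small amount, and at a threshold of 8-fold the first median was 0.00 in naive replicate 1. Naive replicate 1 members are 89 barcodes, and matched others lowered both upper medians to 0.26 and 0.34.

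**Figure D5:**
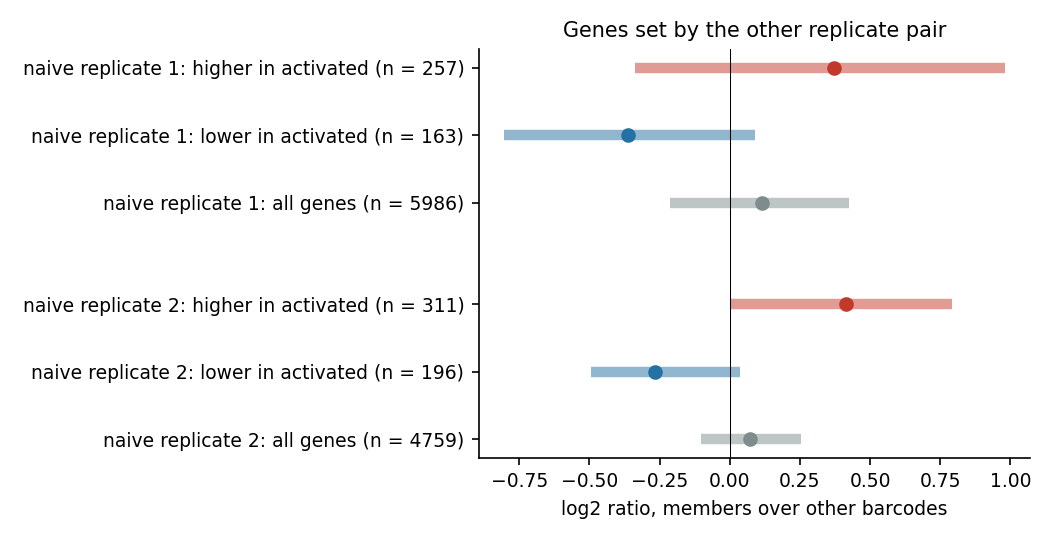
Median (point) and interquartile range (bar) of the log2 ratio of members to other naive DNT barcodes, for genes at least 4-fold higher or lower in activated DNT cells of the other replicate number and for all genes. Medians of genes higher in activated cells were 0.37 and 0.42, and of genes lower in activated cells −0.36 and −0.27.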

How the data were processed

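The authors deposited raw UMI counts per gene and barcode for each library, made with Cell Ranger 2.1.0 and 3.0.1 on mm10 (GRCm38), per the submitters' processing notes; the matrix headers of replicate 2 of naive and activated DNT name software version 3.0.2. The aligner settings are not given in the sources used here. Comparisons used the 27514 genes in both references (27998 and 31053 genes), and UMIs outside them were 0.400% to 0.597% of a library. Barcodes with 200 or more genes, at most 10% mitochondrial UMIs, no Cd79a UMI and at most 1 Lyz2 UMI were kept. Kept naive libraries held 16973908 and 52153580 UMIs and activated ones 34450930 and 24931531, with medians of 4118.5, 7571, 15809 and 9396.5 per barcode. Libraries shared 0 to 36 barcode sequences.

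The members, gene lists and tests were chosen with earlier results of these data known. UMIs were summed per library over members (489317 and 2216563 UMIs) and over others, and edgeR 4.0.16 in R 4.3.3 ran a robust quasi-likelihood test after filterByExpr and TMM (Benjamini-Hochberg adjustment at 0.05); DESeq2 1.42.0 was the alternative. Both fits rest on 2 libraries per arm. In members against others the median prior degrees of freedom were infinite, beside 1 residual. There the spread came from a trend over all genes, with a common coefficient of variation of 0.0623 beyond counting error. Its p-values and SEs therefore do not measure how each gene varied between libraries. Against activated cells the fit had 2 residual and a median of 9.94 prior degrees of freedom. Counts were simulated with the spread of members against others, with 50 genes each changed 2-, 4-, 8- and 16-fold. Of these, 36, 46, 48 and 43 were recovered, with 5 false calls among 10627 genes. Because the counts were drawn with the spread the fit itself had estimated, they cannot show false calls from any further variation between libraries. With the spread of members against activated, 0, 13, 34 and 41 of 50 were recovered, with 35 false calls among 11145. The share of false calls in that simulation was larger than the threshold of 0.05 allows. Doublets were not called; leaving out barcodes above the 95th percentile of UMIs stood in. Thinned values drew 2000 UMIs per barcode and left out shallower ones (1 and 0 members, 137 and 97 others). Depth-matched others were the 10 nearest barcodes per member in total UMIs. Other-cell markers left out, the setting named in the report, means barcodes with 2 or more UMIs of a short list of B, myeloid, dendritic, plasma and red cell genes, chosen after seeing the data, which removed 35 and 12 members and 1250 and 167 others.

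Named genes were the 15 largest rises and 10 largest falls called in the same direction in both libraries with 20 CPM or more in the higher arm, the 5 rule genes, 5 differences each way from activated cells at 50 CPM or more, and 2 to 4 called genes of largest change per list. Nr4a1, Cd69, Fos, Il2ra, Gzmb, Ccl5 and the genes followed across rule and partner classes were added after their values were seen. A few listed genes are counted in their lists but not reported here by name. GENCODE vM21 (GRCm38) gave the gene coordinates and held 423 of 423 named or listed gene IDs. Sums and figures were made with SciPy 1.17.1, pandas 2.3.3, NumPy 2.4.6 and matplotlib 3.10.9 under Python 3.11.15.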

Additional observations from a re-analysis of the deposited data

How the results depend on the processing

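Of the 990 genes called between members and others, 821 kept call and direction against depth-matched others and 647 with barcodes of other-cell markers left out; there 342 were higher. DESeq2 called 172 (96 higher, 76 lower), thinning every barcode to 2000 UMIs 162 (88 and 74), members chosen after thinning 200 (68 and 132), at least 2 Tnfrsf9 UMIs 581 (297 and 284), and leaving out barcodes above the 95th percentile of UMIs 581 (290 and 291). Library totals without TMM gave 302 lower. Leaving out every barcode with 2 or more UMIs of any listed marker of B, plasma, myeloid, dendritic or red cells, genes that T cells partly express, kept 12 and 28 members and gave 12 calls, 12 higher and 0 lower. DESeq2 and library totals used the same sums and genes, while the thinned and left-out settings hold fewer UMIs or barcodes; the cause was not tested.

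The pairing of members and others is by library (correlation of deviations 0.564), and with no replicate block 0 genes were called, 0 higher and 0 lower. Between members and activated cells replicate numbers share only a number and a kit (correlation 0.428); a replicate block there gave 3155 calls (1384 higher, 1771 lower). Without TMM that comparison gave 40 (18 and 22), thinned 55 (31 and 24), without the low-count filter 388 lower, and with 1 library left out 7 to 894 (7 to 445 higher, 0 to 449 lower); the lone sum of an arm is then assumed to vary like the other arm. The cause was not tested.

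The share of barcodes meeting the rule, after thinning, was 0.242% in TCRab, 0.652% and 0.544% in naive DNT, 44.0% and 32.0% in activated DNT, 0.123% in CD4 and 0.109% in CD8. With at least 2 Tnfrsf9 UMIs it was 0.422%, 0.504% and 1.16%, 80.4% and 51.9%, 0.160% and 0.452%, in that order. The median of genes higher in activated cells, in naive replicates 1 and 2, was 0.34 and 0.24 at 2-fold, 0.00 and 0.35 at 8-fold, 0.48 and 0.36 at 50 CPM, 0.26 and 0.34 with matched others, and 0.24 and 0.32 with a pseudocount of 5 CPM. For genes lower in activated cells it was −0.20 and −0.12 at 2-fold and −0.29 in replicate 1 with that pseudocount.

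Directions of some single genes turned. With members chosen after thinning these were Krt18 (−0.00932), Gzmk (−0.0708), Gzmb (−1.16), Ccna2 (−8.09), Izumo1r (−0.11), Hk2 (0.61) and Ifit1 (−10.91). With all listed other-cell markers left out they were Cd69 (0.0150), Il2ra (0.11), Gzma (0.88), Gzmb (−0.0841), Srm (−0.11), Maf (0.28) and Tpi1 (−0.0364). With 2 Tnfrsf9 UMIs they were Gzmb (−0.94), Ifit1 (−0.795) and Cd8b1 (−1.26). Without the deepest barcodes they were Tk1 (−0.18) and Ifit1 (−0.83). Ifit1 was also −1.65 by DESeq2 and −0.0473 thinned. With 1 library left out Ifit1 ran from −5.37 to 1.02 and Ccna2 from −2.62 to 2.11, both negative without replicate 2. The cause was not tested. Precision is limited by replicate 1, whose 89 members held 489317 UMIs.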

Other observations

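T cell receptor constant genes are in the v3 reference alone, so they were read in replicate 2. There Trac was at 762 CPM in members and 663 in the others, and Trbc2 at 2220 and 1995. Trdc, of the delta chain that the sort excludes, was at 39.7 and 37.2 CPM, with a UMI in 10.1% of members and 7.99% of the others. Ighm was at 164 CPM in members and 223 in the others, and Igkc at 6.32 and 5.59. These are values of 1 library with no test.

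Dtx1, a Notch target, fell (log2 difference −1.03), the 1 called gene among 10 tested of the Notch list, in members that include Hes1 among their rule genes; no gene of that list rose by edgeR (0 at an unadjusted p under 0.05 and 0 by DESeq2). Among partners of IRF and AP-1 factors 3 of 12 rose and 2 fell, led by Jdp2 (2.06, with 0 UMIs in members of replicate 1) and Maf (−1.27). Glycolysis genes had 3 rises and 1 fall among 17, with Hk2 at −0.80 and Tpi1 at 0.67. Of 17 interferon genes 2 rose and 0 fell by edgeR (4 lower at an unadjusted p under 0.05), and DESeq2 called 0 in either direction. They were Isg15 (0.66) and Ifit1 (0.75), which had 0 UMIs in members of replicate 1 and turned to −1.65 by DESeq2, −0.0473 with thinned barcodes and −5.37 without replicate 2. Regulatory T cell markers had 2 rises (Ctla4 and Izumo1r, a folate receptor family member, 1.02) and 1 fall among 8, and Foxp3 had 3 UMIs in all members. Of 8 NK cell markers Eomes and Klra4 (2.78, with 0 UMIs in replicate 1) rose and Gzma fell; their sum was 220 and 365 CPM in members and 139 and 137 in the others. Of 5 tested B cell markers Cd74 and H2-Aa (−1.58) fell and 0 rose (0 at an unadjusted p under 0.05 and 0 by DESeq2). Plasma cell markers summed to 86.3 and 79.9 CPM in members and 38.9 and 74.4 in the others, most of it Xbp1 (47.3 and 56.7 CPM in members) and Sdc1 (37.0 and 23.1), and 0 of 2 tested passed (0 at an unadjusted p under 0.05 and 0 by DESeq2). Thy1 fell (−0.78) and Lat rose (0.31) among 10 pan-T genes. Cd8b1 (28.8 and 8.62 CPM in members, 15.1 and 5.20 in the others) and Cd8a (2.06 and 1.36) did not pass.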
